A study of Mus musculus with 17 samples.

Results

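Regulatory T cells of mouse pancreatic tumours were taken from 5 droplet single-cell RNA libraries. A barcode was counted as a regulatory T cell when it had at least 500 genes, at most 10% of its UMIs (unique molecular identifiers, 1 per captured RNA molecule) from mitochondrial genes, at least 2 UMIs of Cd3d, Cd3e and Cd3g together, at least 1 Foxp3 UMI, no Cd79a UMI and under 20 UMIs of C1qa, C1qb and C1qc together. The rule found 82 barcodes among 18546 that passed the gene and mitochondrial filters, of 23150 deposited, and among 1182 T cell barcodes that met every condition other than the one on Foxp3. The 5 libraries held 20 of them in CD4Cre, 18 in flWT_CD4Cre, 13 in flfl_CD4Cre, 23 in flfl and 8 in WT.

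The study asked what PD-L1 on T cells does in cancer. Each library came from leukocytes sorted for CD45 from untreated mice 3 weeks after a tumour was placed in the pancreas. CD4Cre mice carried the Cre transgene with no floxed allele, flWT_CD4Cre mice carried Cre with 1 floxed and 1 wild-type PDL1 allele, and flfl_CD4Cre mice carried Cre with both PDL1 alleles floxed. The flfl mice had both alleles floxed and no Cre, and the WT library had neither. A Cre driven by the Cd4 promoter acts in thymocytes that still bear both coreceptors, so it reaches the CD8 lineage as well as the CD4 lineage. There was 1 library per genotype, and the sources used here do not give the number of mice in a library, so levels below are compared between genotypes without a test.

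As background, regulatory T cells are the CD4 T cells that restrain other immune cells, and the transcription factor Foxp3 maintains their state. They consume interleukin 2 through the high-affinity receptor chain Il2ra (CD25), strip costimulatory ligands from antigen-presenting cells through Ctla4, and depend on Ikzf2 (Helios) for stability. In tumours they commonly carry the costimulatory TNF receptors Tnfrsf4 (OX40), Tnfrsf9 (4-1BB) and Tnfrsf18 (GITR) and the chemokine receptor Ccr8.

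Promoters are shown for Il2ra, Ctla4 and Tnfrsf9, surface receptors that were higher in the members than in the conventional CD4 T cells described below. Of 7 core genes higher in that comparison (Il2ra, Ctla4, Ikzf2, Ikzf4, Tnfrsf4, Tnfrsf9 and Capg), 5 had 6 promoters in the RefSeq table of build GRCm38.p6, and Ikzf2 and Ikzf4 had none there. Each line gives the 250 bases upstream of a transcription start, 5′ to 3′ on the plus strand, and capitals mark letters that match 1 of 5 motifs searched on both strands.
Il2ra, chr2:11642542-11642791: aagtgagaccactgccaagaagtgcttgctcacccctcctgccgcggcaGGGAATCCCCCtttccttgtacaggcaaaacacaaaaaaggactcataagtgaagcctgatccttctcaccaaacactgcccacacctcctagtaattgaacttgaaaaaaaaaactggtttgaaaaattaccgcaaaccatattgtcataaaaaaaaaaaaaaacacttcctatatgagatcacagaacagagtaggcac
Ctla4, chr1:60908775-60909024: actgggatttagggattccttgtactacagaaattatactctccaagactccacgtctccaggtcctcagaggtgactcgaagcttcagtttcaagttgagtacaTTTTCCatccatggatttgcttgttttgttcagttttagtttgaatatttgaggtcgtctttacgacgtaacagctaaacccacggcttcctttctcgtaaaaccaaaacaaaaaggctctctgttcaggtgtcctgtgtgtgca
Tnfrsf9, chr4:150927749-150927998: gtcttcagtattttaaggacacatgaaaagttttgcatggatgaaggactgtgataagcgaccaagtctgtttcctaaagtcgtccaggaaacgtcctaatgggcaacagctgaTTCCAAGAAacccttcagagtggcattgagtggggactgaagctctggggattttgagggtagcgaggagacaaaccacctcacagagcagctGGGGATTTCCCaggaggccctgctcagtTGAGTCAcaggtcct
The motifs were the forkhead letters GTAAACA, the NFAT letters GGAAAA, the AP-1 letters TGANTCA, the STAT letters TTCNNNGAA and the kappaB letters GGG and CC with 5 bases of any kind between them. The Il2ra window held overlapping kappaB matches starting 201 and 200 bases upstream of the start, and the Ctla4 window held 1 NFAT match 145 bases upstream, on the minus strand. The Tnfrsf9 window shown held an AP-1 match at 15, overlapping kappaB matches at 43 and 42 and a STAT match at 136 bases upstream. The windows shown were chosen after their matches were seen. Of those not shown, the other Tnfrsf9 start had 1 NFAT match 138 bases upstream, Capg 1 kappaB match 234 bases upstream, and Tnfrsf4 no match. Among 32851 promoter windows of the same length, 45.8% held the kappaB letters, 20.4% the NFAT letters, 7.02% the STAT letters, 6.75% the AP-1 letters and 3.17% the forkhead letters. Across the 6 windows of the core genes, 3 held the kappaB letters, 2 the NFAT letters, 1 each the AP-1 and STAT letters and 0 the forkhead letters. These matches are a description of the letters alone.

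The libraries differed in ways that bear on every result. CD4Cre, flWT_CD4Cre and flfl_CD4Cre were mapped to a table of 31053 genes and flfl and WT to one of 28692, and the analyses use the 28208 genes they share. The lowest UMI count among barcodes past the filters was 657, 671 and 644 in the first 3 libraries and 4455 and 5007 in flfl and WT. T cells were 2.09%, 2.09% and 1.77% of barcodes in the first 3 libraries against 19.96% and 12.4% in flfl and WT, although the labels of all 5 describe T cells. The deposited file names of flWT_CD4Cre and WT disagree with their genotype labels, and the labels are used. CD4Cre and flWT_CD4Cre had 1710 barcodes in common, CD4Cre and flfl_CD4Cre 1414, flWT_CD4Cre and flfl_CD4Cre 1856, and other pairs 0 to 12. Of the 82 members, 6 had a barcode also found in another library, none was a member in both, and the member copy was 3.79 to 57.0 times deeper than the other.

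Foxp3 chose the members, so its level is a description. The members' Foxp3 level was 477 counts per 1000000 summed UMIs (CPM) in CD4Cre, 398 in flWT_CD4Cre, 274 in flfl_CD4Cre, 173 in flfl and 205 in WT, from 108, 67, 44, 50 and 23 UMIs (Foxp3, chromosome X, 7573644 to 7595245, GRCm38). Levels were higher in the 3 libraries of the larger gene table than in the remaining pair. Just inside the threshold, 16 members had 1 Foxp3 UMI and 19 had 2, while 19 had 5 or more. The flfl library held 9 of the 16 members with 1 UMI. Just outside the rule, barcodes with Foxp3 numbered 2 with 1 CD3 UMI, 16 with no CD3 UMI, 14 with 20 or more C1q UMIs and 12 with a Cd79a UMI. A Foxp3 UMI was present in 0% to 0.935% of macrophage barcodes, whose median depth was 11368.5 to 17700.5 UMIs, and in 0% to 0.816% of B cell barcodes. Among T cells with a Cd8a or Cd8b1 UMI and no Cd4 UMI it was present in 1 of 38, 1 of 38, 1 of 22, 1 of 434 and 2 of 282 barcodes by library, 0.230% to 4.55%. These 6 barcodes are members by the rule. Cd4 UMIs were present in 59 members and Cd8a or Cd8b1 UMIs in 15, of which 8 were in flfl and 4 in WT.

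The members were 82 barcodes of unequal depth. Their median depth was 8893.5 UMIs in CD4Cre, 6454.5 in flWT_CD4Cre, 8503 in flfl_CD4Cre, 10059 in flfl and 8145.5 in WT, and their summed UMIs ran from 112121 to 289015 a library. The deepest barcode supplied 25.1% of the sum in CD4Cre, 26.1% in flWT_CD4Cre, 37.7% in flfl_CD4Cre, 9.51% in flfl and 39.9% in WT. The 4 members above 30000 UMIs were 1 each in CD4Cre, flWT_CD4Cre, flfl_CD4Cre and WT. In flfl_CD4Cre that barcode had 60615 UMIs, of which 1 was Foxp3 and 206 belonged to a list of 8 epithelial and fibroblast markers. UMIs of markers of macrophages, neutrophils, dendritic cells, B cells and tumour cells together were a median of 0.313% of a member's UMIs in CD4Cre, 0.326% in flWT_CD4Cre, 0.431% in flfl_CD4Cre, 0.655% in flfl and 0.715% in WT. They reached 1% or more in 4, 2, 4, 8 and 1 members of those libraries. The defining markers Xcr1, of cross-presenting dendritic cells, and Ncr1, of natural killer cells, were at 0 in every member. Other genes of those lists were present, with Tyrobp, a myeloid and natural killer adaptor, in 49 of 82 members (313 UMIs), the class II genes Cd74 in 72 (2661 UMIs) and H2-Aa in 55 (784 UMIs), and Siglech, of plasmacytoid dendritic cells, in 2 (21 UMIs). The summed natural killer list stood at 172 to 533 CPM in the members.

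**Figure D1:**
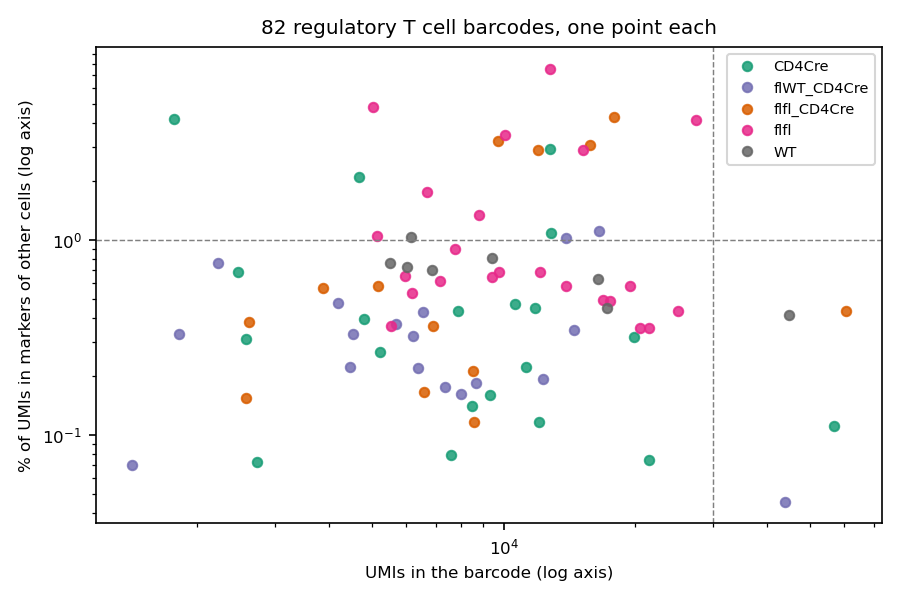
Each of the 82 points is 1 regulatory T cell barcode, with its UMIs on the x axis (log scale) and the percent of its UMIs in markers of macrophages, neutrophils, dendritic cells, B cells and tumour cells on the y axis (log scale), coloured by library. Dashed lines mark 30000 UMIs and 1%. The 4 deepest barcodes stand to the right of the vertical line, and 19 barcodes lie at or above the horizontal one.

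The label was checked against Il2ra, Ctla4, Ikzf2 and Tnfrsf4, which the rule did not use. At least 3 of these 4 markers had a UMI in 72 of 82 members (87.8%, exact binomial 95% interval 78.7 to 94.0), all 4 in 41, and none of the 82 lacked all 4. By library, at least 3 were present in 18 of 20 members of CD4Cre, 18 of 18 of flWT_CD4Cre, 11 of 13 of flfl_CD4Cre, 17 of 23 of flfl and 8 of 8 of WT. In conventional CD4 T cells, defined by the same conditions with no Foxp3 UMI, at least 1 Cd4 UMI and no Cd8a or Cd8b1 UMI, the same held for 8 of 30, 6 of 13, 7 of 22, 4 of 16 and 2 of 25 barcodes. CD8 T cells, with no Foxp3 or Cd4 UMI and at least 1 Cd8a or Cd8b1 UMI, met it in 4 of 37, 12 of 37, 0 of 21, 55 of 433 and 19 of 280. The shares were higher in the members than in either other class in each library. The members were also deeper than the conventional CD4 cells in each library (conventional medians 6029.5, 4701, 6874, 5932 and 5966 UMIs), and the part of depth in these shares was not tested.

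Cd40lg, the ligand by which helper T cells license B cells and dendritic cells, was a marker of the conventional CD4 class. It had 0 UMIs in 956405 UMIs of the 82 members, in which a floor of 3 barcodes would be a share of 3.66%. In the conventional class it had 48 UMIs, and 30 of 106 barcodes (28.3%) had one. Against a floor of 3 counts over the members, Cd40lg was at least 18.1-fold lower in regulatory than in conventional CD4 T cells, counting error only.

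The expression of 74 members was compared with that of 81 conventional CD4 T cells of the same tumours, over the 4 libraries with at least 10 barcodes in both classes (WT, with 8 members, was left out of the fit). Raw UMIs were summed per library and class and tested with edgeR's quasi-likelihood test with the library as a block. Regulatory T cells had higher levels of the interleukin 2 receptor chain Il2ra, the Ikaros-family factors Ikzf2 and Ikzf4, the checkpoint receptor Ctla4 and the costimulatory receptors Tnfrsf4 and Tnfrsf9. They had lower levels of Tcf7, the factor of stem-like and memory T cells, and of Tnfsf8 (CD30 ligand). Of 3286 genes tested, 82 passed an adjusted p of 0.05, 2.5% of those tested, comprising 38 higher (1.16%) and 44 lower (1.34%). At an unadjusted p under 0.05 there were 569. Without the block 3 genes passed, all lower. Without the members and conventional cells above 30000 UMIs 26 passed, and without the CD4Cre library 39 passed.

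Il2ra (chromosome 2, 11642807 to 11693193) stood at 875 CPM in CD4Cre, 1003 in flWT_CD4Cre, 162 in flfl_CD4Cre, 107 in flfl and 303 in WT among regulatory cells, and at 71.7, 27.5, 36.3, 57.1 and 54.8 CPM among conventional cells. The classes did not overlap across the 5 libraries, and the gap was narrowest in flfl. A single barcode held 116 of the 198 Il2ra UMIs of CD4Cre (58.6%), without which the level there was 482 CPM, and another held 24 of the 34 in WT (70.6%). The log2 fold change was 3.00 ± 0.55 (SE, 4 libraries; edgeR adjusted p = 0.0408), and the call was lost without the CD4Cre library. Without barcodes above 30000 UMIs it was 2.68 ± 0.45 (SE; edgeR adjusted p = 0.0238).

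Ikzf2 (chromosome 1, 69531214 to 69687245) stood at 853, 1217, 735, 626 and 624 CPM in the members, in the order CD4Cre, flWT_CD4Cre, flfl_CD4Cre, flfl and WT, against 211, 399, 222, 286 and 98.7 CPM in conventional cells. It was the most even of the 4 markers across libraries, and the classes did not overlap. Its log2 fold change was 1.58 ± 0.23 (SE; edgeR adjusted p = 0.00291). Ikzf4 (Eos), a partner of Foxp3 in gene repression, had 53.0, 131, 93.4, 55.4 and 44.6 CPM in the members and 16.9, 0, 12.1, 9.52 and 5.48 CPM in conventional cells, with a log2 fold change of 2.60 ± 0.52 (SE; edgeR adjusted p = 0.0129).

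Ctla4 (chromosome 1, 60887000 to 60915832) stood at 769, 1110.2, 324, 187 and 312 CPM in the members in that library order, and at 249, 316, 222, 124 and 21.9 CPM in conventional cells. The ranges overlapped between libraries, but within each library the members were higher. In flfl_CD4Cre that rested on 1 barcode, which held 20 of the 52 Ctla4 UMIs. Without it the members' level there was 206 CPM, below the conventional 222 CPM. The log2 fold change was 1.14 ± 0.26 (SE; edgeR adjusted p = 0.0307).

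Tnfrsf4 (chromosome 4, 156013843 to 156016612) had 1219.7, 1051, 405, 1280.2 and 1481 CPM in the members and 472, 495, 205, 648 and 109.7 CPM in conventional cells. The flfl_CD4Cre library was the lowest of the 5 in the members. Its log2 fold change was 1.06 ± 0.20 (SE; edgeR adjusted p = 0.0101). Tnfrsf9 (chromosome 4, 150914562 to 150946102) had 552, 885, 280.3, 564 and 696 CPM in the members and 92.8, 248, 105, 324 and 252 CPM in conventional cells, a log2 fold change of 1.58 ± 0.28 (SE; edgeR adjusted p = 0.00967). Tnfrsf18, at 268 to 882 CPM in the members and 214 to 524 CPM in conventional cells, had a log2 fold change of 0.58 that did not pass (edgeR adjusted p = 0.192).

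Of 17 core regulatory T cell genes listed, 13 were tested, 7 were higher (Il2ra, Ctla4, Ikzf2, Ikzf4, Tnfrsf4, Tnfrsf9 and Capg) and 0 lower, with a median log2 fold change of 1.14 against 0.0077 over all genes tested. The list was chosen for what regulatory T cells are known to express, and genes that are low in both classes did not enter the test, so the count is a description. Icos, a costimulatory receptor, had 552, 926, 498, 65.7 and 71.4 CPM in the members, and so was low in flfl and WT. Its log2 fold change over conventional cells was 0.63 (edgeR adjusted p = 0.233). Lrrc32 (GARP), which holds latent TGF-beta on the surface, was too low for the test, at 17.3 to 56.1 CPM in the members and 0 to 8.06 CPM in conventional cells.

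**Figure D2:**
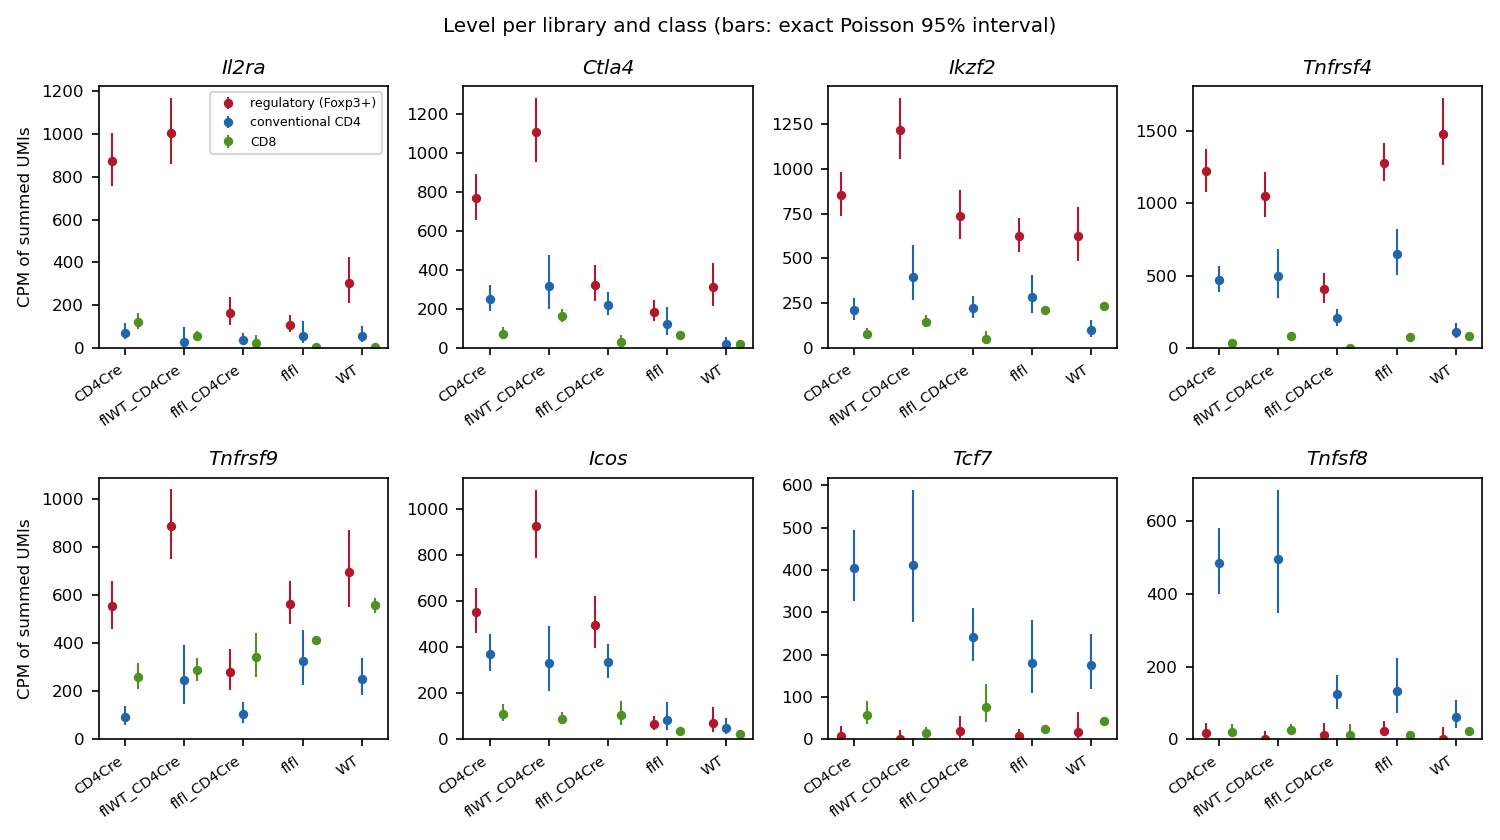
CPM of summed UMIs of 8 genes (y axis) in the 5 libraries (x axis) for regulatory, conventional CD4 and CD8 T cells, with exact Poisson 95% intervals that cover counting error only. The levels (points) of Il2ra and Ikzf2 do not overlap between regulatory and conventional cells, though the Il2ra intervals of the classes overlap in flfl. Icos is low in flfl and WT in the regulatory class, and Tcf7 and Tnfsf8 are at or near 0 in the members.

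The largest falls among the 44 genes called lower were in Tcf7 and Tnfsf8. Tcf7 (chromosome 11, 52252371 to 52283014) had 8.84, 0, 18.7, 6.92 and 17.8 CPM in the members, in the order CD4Cre, flWT_CD4Cre, flfl_CD4Cre, flfl and WT, and 405, 413, 242, 181 and 176 CPM in conventional cells. The members were near 0 in every library. Its log2 fold change was -5.07 ± 0.44 (SE; edgeR adjusted p = 7.63e-06). Tnfsf8 (chromosome 4, 63831308 to 63861347) had 17.7, 0, 12.5, 24.2 and 0 CPM in the members and 485, 495, 125, 133 and 60.3 CPM in conventional cells, a log2 fold change of -4.21 ± 0.54 (SE; edgeR adjusted p = 0.00504). Both calls held in every alternative that gave a value, including the fit without the block.

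Of 13 resting and memory genes listed, 9 were tested and 1, Tcf7, was lower, none was higher, and the median log2 fold change was -0.53. The interleukin 7 receptor Il7r had a log2 fold change of -0.53 (edgeR adjusted p = 0.332) and the survival factor Bcl2 one of -2.17 (edgeR adjusted p = 0.253). Of 15 inhibitory receptor genes and their regulators, 5 were tested and Tox, a factor of exhausted T cells, was lower at -1.30 ± 0.31 log2 (SE; edgeR adjusted p = 0.037). The checkpoint receptor Pdcd1 (PD-1) had 66.3, 23.7, 12.5, 166 and 125 CPM in the members and 139, 261, 105, 190.5 and 137 CPM in conventional cells, a log2 fold change of -1.51 that did not pass (edgeR adjusted p = 0.114). Among 21 conventional effector genes 3 were tested and none passed in either direction with edgeR. That list was mostly under the level the test needs, so little can be read from it.

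Signalling and adhesion genes among the lower ones were Themis, Itgal, Cxcr6 and Sh2d1a. Themis, which tunes T cell receptor signals, had a log2 fold change of -1.77 ± 0.31 (SE; edgeR adjusted p = 0.00665), and was the only 1 of 13 tested genes of T cell receptor and interleukin 2 signalling to pass. Cxcr6, a chemokine receptor of tissue-resident T cells, had 31.1 to 163 CPM in the members and 185 to 688 CPM in conventional cells, and a log2 fold change of -1.76 ± 0.32 (SE; edgeR adjusted p = 0.0101). It was the only 1 of 11 tested homing genes to pass. Itgal, the integrin chain of LFA-1, was at -1.54 ± 0.26 log2 (SE; edgeR adjusted p = 0.00651). Sh2d1a (SAP), an adaptor of SLAM receptors, and Ikzf1 (Ikaros) were each at -1.71 ± 0.30 log2 (SE; edgeR adjusted p = 0.00665). Ikzf1 thus lay in the opposite direction to its family members Ikzf2 and Ikzf4. No member of a list of 12 costimulation genes passed in either direction among the 8 tested.

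Of 22 effector genes of regulatory T cells listed, 17 were tested, none passed in either direction with edgeR, 15 had a positive log2 fold change and the median was 0.58. Gzmb (granzyme B) had 544, 1603, 349, 45 and 53.5 CPM in the members and 177, 41.3, 214, 9.52 and 65.8 CPM in conventional cells. It was higher in the members in each of the 4 libraries tested, with a wide spread (log2 fold change 2.003, edgeR adjusted p = 0.274). Klrg1, a receptor of terminally differentiated regulatory cells, was even across libraries at 107 to 169.5 CPM in the members, with a log2 fold change of 1.01 (edgeR adjusted p = 0.162). Itgae (CD103) and Prdm1 (Blimp-1) had log2 fold changes of 1.52 (edgeR adjusted p = 0.112) and 1.23 (edgeR adjusted p = 0.125).

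Of 12 suppression genes, 6 were tested and Lgals3 (galectin 3) alone passed, at 1.01 ± 0.24 log2 (SE; edgeR adjusted p = 0.0307). Lgals3 is also made by macrophages, and without barcodes holding 1% or more UMIs of other cells its log2 fold change was -0.46 (edgeR adjusted p = 0.600) over 3 libraries, since flfl_CD4Cre then had 9 members. Leaving out flfl_CD4Cre alone, over the same 3 libraries, Lgals3 stood at 1.03 log2 (edgeR adjusted p = 0.0514), and its call was also lost without flWT_CD4Cre and without flfl. Interleukin 10 was too low for the test, with Il10 at 48.6, 113, 31.1, 3.46 and 26.8 CPM in the members and 0, 0, 16.1, 0 and 0 CPM in conventional cells. Ebi3, a chain of interleukin 35, stood at 24.9 to 100.3 CPM in the members and 8.06 to 28.6 CPM in conventional cells. Areg (amphiregulin), a tissue repair factor, was highest in flfl at 149 CPM and at 18.7 to 35.7 CPM in the members of the other 4 libraries. Tgfb1 stood at 168 to 339 CPM in the members and 162 to 340.0 CPM in conventional cells, with a log2 fold change of 0.21 (edgeR adjusted p = 0.764).

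All 12 tested cell cycle genes of 20 listed had a positive log2 fold change, with a median of 1.11, and 2 passed. These were Stmn1, a microtubule regulator at 1.94 ± 0.41 log2 (SE; edgeR adjusted p = 0.0307), and Cks1b, a cyclin-dependent kinase subunit at 1.45 ± 0.33 log2 (SE; edgeR adjusted p = 0.0274). Mki67 had 203, 267, 49.8, 90.0 and 232 CPM in the members and 25.3, 0, 133, 28.6 and 82.3 CPM in conventional cells, and was lower in the members in flfl_CD4Cre (log2 fold change 1.41, edgeR adjusted p = 0.615). In flWT_CD4Cre 1 barcode held 39 of the 45 Mki67 UMIs. Of 20 interferon-response genes 15 were tested, and Iigp1, a GTPase induced by interferon, and Bst2 (tetherin) passed at 2.21 ± 0.41 log2 (SE; edgeR adjusted p = 0.0101) and 1.23 ± 0.28 log2 (SE; edgeR adjusted p = 0.028). The Bst2 call was lost in several alternatives. Its log2 fold change was 0.24 (edgeR adjusted p = 0.81) with at least 2 Foxp3 UMIs. Without barcodes above 30000 UMIs it was 0.53 (edgeR adjusted p = 0.499). Of 18 metabolism genes 16 were tested, and the hexokinase Hk2 passed at 1.42 ± 0.34 log2 (SE; edgeR adjusted p = 0.0332).

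Several of the genes with the largest rises outside the lists are well known from myeloid cells. Ccl6, a myeloid chemokine, had 384, 392, 1912, 100.3 and 71.4 CPM in the members and 97.0, 41.3, 133, 47.6 and 214 CPM in conventional cells (log2 fold change 2.71 ± 0.40 SE, edgeR adjusted p = 0.00707). Arg1 (arginase 1) had 349, 392, 24.9, 121 and 17.8 CPM in the members and was near the conventional level in flfl_CD4Cre and WT (log2 fold change 2.01 ± 0.44 SE, edgeR adjusted p = 0.0322). Cebpb, Ier3, Tgfbi and the metallothionein Mt1 rose as well, by 1.53 to 2.49 log2. Beside these, the summed level of the 11 macrophage markers outside the rule was 2638, 2707, 5482, 3374 and 2613 CPM in the members against 2421, 908, 1922, 2324 and 3494 CPM in conventional cells. All 6 tested macrophage markers had a positive log2 fold change with a median of 1.08, and none passed in either direction with edgeR. The summed dendritic markers were 766 to 9218 CPM in the members and 234 to 9114 CPM in conventional cells. The neutrophil markers were 5.94 to 2332 CPM in the members and 4.03 to 3817 CPM in conventional cells. In flfl they stood at 2332 CPM in the members and 2009 CPM in conventional cells. The part of other cells' RNA in these genes was not tested. Without barcodes holding 1% or more such UMIs, 71 genes passed, 39 of them among the 82, over 3 libraries without flfl_CD4Cre, and Mt1, Capg and Bst2 were no longer called. Leaving out flfl_CD4Cre alone, Mt1 was called (edgeR adjusted p = 0.00697), and Capg (0.0514) and Bst2 (0.132) were not.

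**Figure D3:**
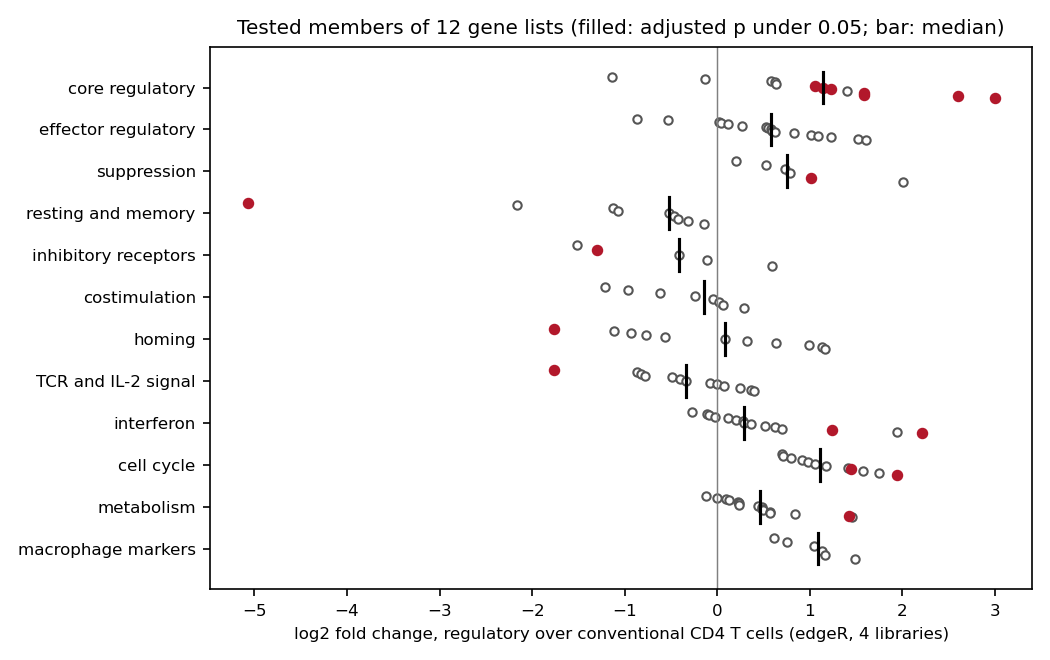
Log2 fold change of regulatory over conventional CD4 T cells (x axis) for the tested members of 12 gene lists (y axis), from edgeR over 4 libraries. Filled points passed an adjusted p of 0.05 and bars are medians. The core list has 7 filled points to the right, Tcf7 is the far left point, and the unfilled macrophage markers all lie to the right of 0.

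The 74 members of the same 4 libraries were also compared with the 528 CD8 T cells there. Of 3998 genes tested, 195 passed with edgeR, 4.88% of those tested, with 79 higher (1.98%) and 116 lower (2.9%). Of the core genes tested 8 of 13 were higher, and of conventional effector genes 5 of 6 were lower, among them the granzymes Gzma and Gzmk. Without the CD4Cre library 86 passed, and without the block 39.

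Of the 17 core genes, 13 were tested against CD8 T cells and 8 were higher, with a median log2 fold change of 2.09 against -0.02 over all genes tested. Tnfrsf4 was higher by 4.26 ± 0.38 log2 (SE; edgeR adjusted p = 0.000217) and Il2ra by 3.54 ± 0.33 (SE; edgeR adjusted p = 9.23e-05). Izumo1r (folate receptor 4) had 237 to 330.0 CPM in the members and 0 to 39 CPM in CD8 cells, and a log2 fold change of 3.64 ± 0.44 (SE; edgeR adjusted p = 0.00134). Its level in conventional CD4 cells was 60.4 to 269.9 CPM, and it did not pass there (log2 fold change 0.63, edgeR adjusted p = 0.36). Tnfrsf18 and Icos, which did not pass against conventional cells, passed against CD8 cells at 2.19 ± 0.23 log2 (SE; edgeR adjusted p = 9.23e-05) and 2.09 ± 0.37 (SE; edgeR adjusted p = 0.0104). Whether the 2 contrasts differ was not tested.

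Of the 22 effector genes of regulatory cells, 16 were tested against CD8 T cells and 5 were higher. Maf, which promotes interleukin 10, had 813, 1270.5, 966, 104 and 89.2 CPM in the members against 14.5, 9.22, 76.4, 9.33 and 11.7 CPM in CD8 cells (log2 fold change 4.65 ± 0.65 SE, edgeR adjusted p = 0.0168). Like Icos, Maf was low in the flfl and WT members, and so was the chemokine receptor Ccr2, at 380.0, 754, 1053, 48.4 and 53.5 CPM. Klrg1 was higher by 3.04 ± 0.36 log2 (SE; edgeR adjusted p = 0.000308), with 3.35 to 36.9 CPM in CD8 cells, and the tetraspanin Cd81 by 3.31 ± 0.34 (SE; edgeR adjusted p = 9.23e-05). The decoy receptor Il1r2, which binds interleukin 1, was highest in flfl at 547 CPM and rose by 2.71 ± 0.41 log2 (SE; edgeR adjusted p = 0.00186).

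Most tested conventional effector genes were lower in the members than in CD8 T cells. Of 6 tested conventional effector genes 5 were lower in the members (Ifng, Nkg7, Gzma, Gzmk and Cst7), with a median log2 fold change of -3.35. Gzma had 0, 0, 0, 3.46 and 35.7 CPM in the members against 920.3, 981, 135, 206 and 238 CPM in CD8 cells, a log2 fold change of -8.73 ± 0.56 (SE; edgeR adjusted p = 1.13e-06). The chemokine Xcl1, which draws cross-presenting dendritic cells, had 0, 0, 0, 6.92 and 8.92 CPM in the members against 854, 343, 241, 686 and 787 CPM (log2 fold change -7.99 ± 0.49 SE, edgeR adjusted p = 9.15e-07). These fold changes rest on libraries at 0 and depend on the prior count of the fit. The natural killer receptors Klre1, Klrc1 and Klrk1, which CD8 cells also use, were lower at -5.90, -4.34 and -3.55 log2. Gzmb did not pass, at 45 to 1603 CPM in the members and 64.9 to 1158 CPM in CD8 cells (log2 fold change -0.28, edgeR adjusted p = 0.895). Over all libraries a Gzmb UMI was present in 44 of 82 members and 232 of 808 CD8 cells. A Gzma UMI was present in 100 of 808 CD8 cells. Pdcd1, at -2.28 ± 0.37 log2 (edgeR adjusted p = 0.00397), and Lag3, at -1.49 ± 0.25 log2 (edgeR adjusted p = 0.00276), were 2 of 4 inhibitory receptor genes lower among 9 tested. Of 18 cell cycle genes tested, none passed in either direction with edgeR, and the median log2 fold change was 0.12.

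Cd274, which encodes PD-L1, is the floxed gene (chromosome 19, 29367455 to 29388095, GRCm38). Its UMIs in the members were 24 in CD4Cre, 25 in flWT_CD4Cre, 9 in flfl_CD4Cre, 5 in flfl and 1 in WT. The levels were 106 CPM (exact Poisson 95% interval 68.0 to 158), 148 (96.0 to 219), 56.1 (25.6 to 106), 17.3 (5.62 to 40.4) and 8.92 (0.226 to 49.7). The flfl_CD4Cre level lay below both other Cre libraries, with intervals that overlapped with CD4Cre and flWT_CD4Cre, and above the libraries without Cre, whose intervals it also overlapped. In flWT_CD4Cre 1 barcode held 11 of the 25 UMIs, without which the level was 90.4 CPM. A Cd274 UMI was present in 10 of 20, 10 of 18, 5 of 13, 3 of 23 and 1 of 8 members. Which exons are floxed is not given in the sources used here, and 3′ tags outside a deleted part would still be counted, so these values do not check the deletion. Over the 4 libraries the members' Cd274 level was 0.59 ± 0.36 log2 above conventional cells (SE; edgeR adjusted p = 0.446) and 1.26 ± 0.46 above CD8 cells (SE; edgeR adjusted p = 0.181), neither past the threshold. Pdcd1lg2 (PD-L2) stood at 24.9 to 89.2 CPM and Cd80, which binds PD-L1 on the same cell, at 8.92 to 65.3 CPM in the members.

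**Figure D4:**
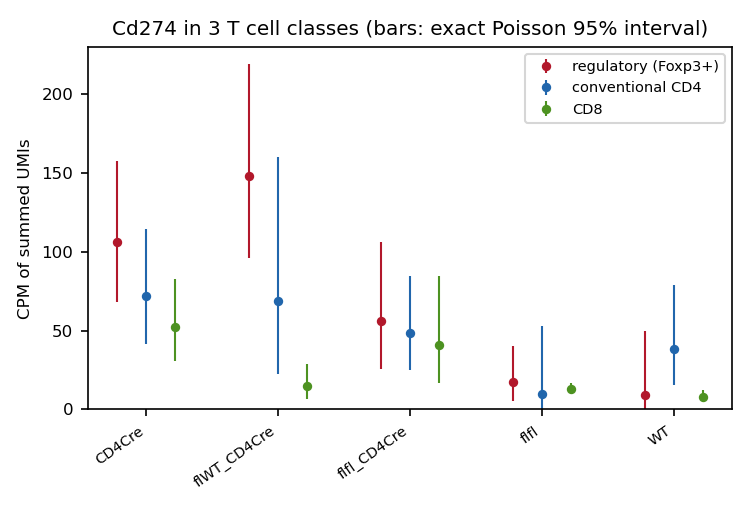
Cd274 level in CPM of summed UMIs (y axis) in the 5 libraries (x axis) for regulatory, conventional CD4 and CD8 T cells, with exact Poisson 95% intervals. The regulatory class runs from 148 CPM in flWT_CD4Cre to 8.92 CPM in WT, and flfl_CD4Cre is at 56.1 CPM.

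The members varied among themselves. Ccr8 had a UMI in 21 of 82 members (3, 3, 1, 9 and 5 by library), and its level was 30.9, 29.7, 6.23, 72.7 and 134 CPM. Ccr8 or Klrg1 had a UMI in 46 members. Mki67 or Top2a, of dividing cells, had a UMI in 35 members (6, 7, 6, 11 and 5 by library). The receptor Tigit had a UMI in 9.

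Members with a Ccr8 UMI were deeper, with a median of 12093 UMIs against 8010. Tnfrsf4 was at 1806 CPM in the 21 barcodes with a Ccr8 UMI and 743 in the 61 without, Tnfrsf9 at 793 and 480, and Ctla4 at 762 and 404. For Ctla4, 71 of the 246 UMIs with Ccr8 came from 1 barcode, without which the level was 626 CPM, and a Ctla4 UMI was present in 71.4% of barcodes with Ccr8 and 78.7% without, the other way from its level. The factor Batf, which drives effector differentiation of regulatory T cells in tissues, was at 266 and 139 CPM, and Mki67 at 288 and 91.5. Other markers did not follow, with Il2ra at 465 and 486 CPM, Ikzf2 at 719 and 844, Icos at 297 and 461, and Foxp3 at 266 and 325. No library had 10 barcodes in both arms, so the difference was not tested. The arms also differ in library, since 14 of the 21 barcodes with Ccr8 came from flfl and WT, and the part of library and depth was not tested.

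The size of the regulatory class was described by its share of T cell barcodes. It was 18.9% in CD4Cre (exact binomial 95% interval 11.9 to 27.6), 22.8% in flWT_CD4Cre (14.1 to 33.6), 18.6% in flfl_CD4Cre (10.3 to 29.7), 4.03% in flfl (2.57 to 5.98) and 2.25% in WT (0.975 to 4.38). The 3 Cre libraries had overlapping intervals, and both libraries without Cre lay below all of them. Cre was confounded with the gene table and the depth floor, so these cannot be told apart. Among CD4 T cells alone (members and conventional cells) the order changed. The share was then 40% in CD4Cre (26.4 to 54.8), 58.1% in flWT_CD4Cre (39.1 to 75.5), 37.1% in flfl_CD4Cre (21.5 to 55.1), 59.0% in flfl (42.1 to 74.4) and 24.2% in WT (11.1 to 42.3). CD8 barcodes, which enter only the first denominator, numbered 37, 37, 21, 433 and 280.

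Depth bears on these shares, since 1 Foxp3 UMI is easier to find in a deeper barcode. Restricted to T cells of at least 5007 UMIs, the share was 21.2%, 22.2%, 19.2%, 4.71% and 2.25%. After thinning each barcode to 1500 UMIs it was 10.5%, 13.5%, 5.71%, 0.876% and 0.562%. The intervals of CD4Cre (5.35 to 18.0) and flWT_CD4Cre (6.68 to 23.5) still lay above those of flfl (0.285 to 2.03) and WT (0.0681 to 2.01). The flfl_CD4Cre interval (1.58 to 14.0) overlapped both. In the thinned data flfl_CD4Cre rested on 4 barcodes, flfl on 5 and WT on 2, and barcodes too shallow to thin were 1 in CD4Cre and 5 in flWT_CD4Cre.

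**Figure D5:**
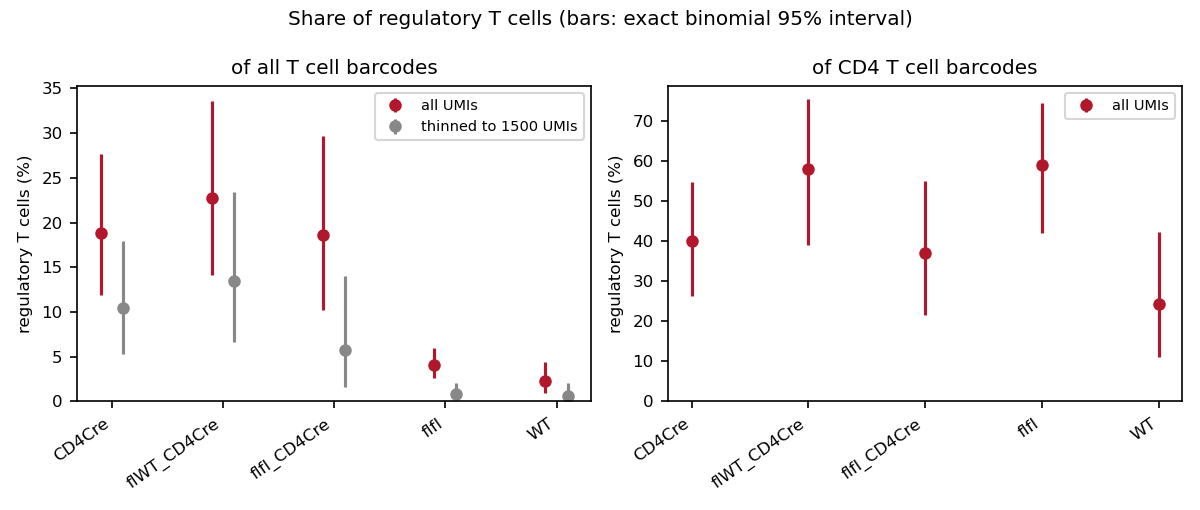
Percent of T cell barcodes (left) and of CD4 T cell barcodes (right) that are regulatory (y axis) in the 5 libraries (x axis), with exact binomial 95% intervals. Red points use all UMIs and grey points barcodes thinned to 1500 UMIs. On the left flfl and WT lie at 4.03% and 2.25%, below the 3 Cre libraries, and on the right flfl lies at 59.0%, the highest.

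Deletion of PD-L1 in T cells is contrasted most directly by flfl_CD4Cre against CD4Cre, 1 library each. A gene was counted when it had at least 100 CPM in the higher library, differed by at least 1 log2, had exact Poisson 95% intervals that did not overlap, and lay in flfl_CD4Cre outside the range of the other 4 libraries. Of 2178 genes with at least 100 CPM in either library, 265 met this rule (12.2%), 189 higher (8.68%) and 76 lower (3.49%) in flfl_CD4Cre. The intervals cover counting error only, and with 13 and 20 barcodes single cells weigh heavily. Without barcodes above 30000 UMIs 170 genes met it, 97 of them among the 265, and without barcodes holding 1% or more UMIs of other cells 249 did, 161 among the 265. In all 3 forms 28 of the 265 genes met it, 17 higher and 11 lower, and the genes named next were singled out after this was seen.

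Interferon-response genes were among those higher in flfl_CD4Cre. Of 17 tested list members, 6 met the rule (Isg15, Ifit1, Ifit3, Ifit3b, Iigp1 and Bst2) and none was lower. Of these 6, only Ifit1 and Iigp1 met it in all 3 forms. Over all libraries an Ifit1 UMI was present in 10 of 82 members, an Ifit3 UMI in 8 and an Ifit3b UMI in 4, so few barcodes carry these levels. Iigp1 stood at 84.0 CPM in CD4Cre, 232 in flWT_CD4Cre, 293 in flfl_CD4Cre, 45 in flfl and 98.1 in WT, a log2 difference of 1.80 between flfl_CD4Cre and CD4Cre. Ifit1, which binds viral RNA, stood at 44.2, 113, 498, 3.46 and 0 CPM in the same order (log2 difference 3.495), and Stat2, which carries the type I interferon signal, at 13.3, 89.1, 187, 10.4 and 17.8 CPM (log2 difference 3.82). Ifitm3 stood at 367, 712, 1588, 266 and 44.6 CPM. In these 4 genes flWT_CD4Cre was second to flfl_CD4Cre, and all 4 met the rule in all 3 forms. Isg15, Ifit3 and Bst2 did not meet it without the barcodes above 30000 UMIs, where Bst2 turned to a log2 difference of -1.02. The summed level of the 20 interferon genes was 6485 CPM in flfl_CD4Cre, 3562 in CD4Cre and 6732 in flWT_CD4Cre, so as a whole the list was as high in the library with 1 floxed allele.

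Of 11 tested genes of T cell receptor and interleukin 2 signalling, 3 were lower in flfl_CD4Cre (Egr1, Lck and Lat) and none was higher. Only Lat held in all 3 forms, and Egr1, at -2.50 log2, stood at -0.70 without barcodes holding 1% or more UMIs of other cells. Tnfrsf4, at 405 CPM in flfl_CD4Cre and 1051 to 1481 in the other 4 libraries, had a log2 difference of -1.59 from CD4Cre. In conventional CD4 T cells Tnfrsf4 was also lower in flfl_CD4Cre than in CD4Cre, flWT_CD4Cre and flfl, though lowest in WT. Whether the fall was particular to the members was not tested. The rule itself requires flfl_CD4Cre to be the lowest of the 5 for every gene counted as lower. Lat, the scaffold of T cell receptor signalling, had 87.2 CPM in flfl_CD4Cre against 266 to 303 in the other libraries (-1.76 log2). The chemokine Ccl5 had 143 CPM against 583 to 1888 (-2.03 log2), the oxysterol receptor Gpr183 had 24.9 CPM against 71.4 to 124.7 (-2.31 log2), and the fatty acid binding protein Fabp5 had 49.8 CPM against 190.3 to 974 (-3.13 log2). All 5 of these met the rule in all 3 forms. Tnfrsf18, at 268 CPM against 548 to 882, and Lck, at 93.4 against 221 to 439, met the rule only in the full data, and Batf, at 37.4 against 53.4 to 339, did not meet it without the barcodes above 30000 UMIs. Of 14 tested effector genes of regulatory T cells, Batf was the only 1 lower, and 3 were higher (Il1rl1, S100a4 and S100a6). None of these effector genes met the rule in all 3 forms.

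Other genes higher in flfl_CD4Cre went with markers of other cells. The tumour list was at 1308 CPM in the flfl_CD4Cre members and 26.8 to 150 CPM in the other 4 libraries, and 4 of 4 tested genes of it (Krt8, Krt18, Krt19 and Sparc) met the rule. The keratin Krt18 had 411 CPM, and its log2 difference of 3.73 turned to -2.04 without the barcodes above 30000 UMIs. Lyz2 (lysozyme) and H2-Aa (MHC class II), at 2330 and 1570 CPM, had log2 differences of 2.30 and 2.15 that turned to -0.23 and -0.70 without barcodes holding 1% or more UMIs of other cells. Both genes belong to the marker lists that define those barcodes, so a fall with their removal was built in and is a description. Ccl6, at 1912 CPM in flfl_CD4Cre, was also highest there. Of 11 tested core genes 2 met the rule, both lower (Tnfrsf4 and Tnfrsf18), and of 16 tested metabolism genes none did in either direction. Cd274 did not meet the rule.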

How the data were processed

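The 5 single-cell libraries were used, and 12 bulk RNA libraries of cultured T cells were not used here. The deposited matrices hold raw UMI counts per gene and barcode, which the authors made with Cell Ranger (3.1.0 in 3 libraries, per the file headers) against mm10, per the submitters' processing notes. A count of a UMI is a captured molecule, and no further normalization was in the files. Each genotype had 1 library, and p-values measure the spread between libraries of different genotypes. Members and gene lists were chosen with earlier results of these data known.

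Counts were summed per library and class. Classes were compared with edgeR 4.0.16 (R 4.3.3) quasi-likelihood tests, two-sided, TMM scaling, filterByExpr, the library as a block and Benjamini-Hochberg adjustment over all genes tested. Both sums of a library come from the same tumour sample, from separate barcodes. Deviations of same-library sums from their class means correlated at 0.305 to 0.706 (conventional) and 0.154 to 0.808 (CD8), on log2 CPM with a pseudocount of 10 CPM. For CD8 the highest correlation with another library was above the same-library value in flWT_CD4Cre (0.203 against 0.154) and flfl_CD4Cre (0.358 against 0.307). Genes that the rules use were not tested. In 1 seeded simulation at the conventional design, edgeR called 8% of changes of 1 log2 and 66% of changes of 2 log2 over 3348 genes. For CD8 it called 8% and 77% over 3496 genes, with 1 false call in each. The dispersion, the same for every gene, and the spread between libraries were set by hand and not taken from these data. Only genes of at least 100 CPM were changed. At those settings changes of about 1 log2 were mostly below reach.

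Named were the markers, Cd274, up to 5 genes of each list by p, and the 12 largest changes outside the lists each way (8 for CD8) with at least 100 CPM. Further genes were named outside these rules, some of them after their values were seen. Among these further genes were Icos, Tnfrsf18, Lrrc32, Il10, Ebi3, Areg, Mki67, Il1r2, Tigit, Pdcd1lg2 and Cd80. Alternatives included DESeq2 1.42.0, other filters, thinning, and Scrublet (scanpy 1.11.5), removing the top 0.8% of scores per 1000 barcodes; doublets were otherwise kept. Removing shared barcodes, barcodes above 30000 UMIs or with 1% or more UMIs of other cells, a depth floor, and adding WT were chosen after seeing the data. Intervals are exact Poisson or binomial at 95%. Positions are from GENCODE on GRCm38.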

Additional observations from a re-analysis of the deposited data

How the results depend on the processing

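For regulatory against conventional CD4 T cells, 82 genes passed. Most calls were made only with the library block, as the fit without the replicate block called 3 (39 against CD8 cells, from 195). DESeq2 called 52, a fit with no filter 310, at least 2 Foxp3 UMIs 40, members with Cd4 and without Cd8 47 (2 libraries), thinning to 1500 UMIs 40 of fewer genes tested, removal of barcodes above 30000 UMIs 26, and inclusion of WT 156. Leaving out 1 library gave 39 (without CD4Cre) to 100. Against CD8 cells, no filter gave 456, thinning 102, and leaving out 1 library 86 (without CD4Cre) to 191. Of 643 values of the 41 named genes called against conventional cells, 459 kept their call, 183 lost it, and Lgals3 reversed to -0.46 without barcodes holding 1% or more UMIs of other cells, a setting that also drops flfl_CD4Cre (1.03 when that library alone is left out). Against CD8 cells 298 of 304 values kept their call. The genes counted there were the largest changes and the markers, so the rates are not like for like. A gene that an alternative did not test gave no value, and after thinning only 6 of the 41 genes and 2 of 18 against CD8 cells had one. The causes were not tested.

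The share of T cell barcodes that are regulatory moved with the denominator, to 40%, 58.1%, 37.1%, 59.0% and 24.2% of CD4 T cells and to 0.394%, 0.475%, 0.329%, 0.804% and 0.279% of all barcodes past the filters (CD4Cre, flWT_CD4Cre, flfl_CD4Cre, flfl, WT). Thinning to 1500 UMIs gave 10.5%, 13.5%, 5.71%, 0.876% and 0.562%. Thinning to 1000 UMIs gave 7.55% in CD4Cre, 14.5% in flWT_CD4Cre, 5.71% in flfl_CD4Cre, 0.175% in flfl and 0.843% in WT. At least 2 Foxp3 UMIs gave 2.45% in flfl. The count of genes that met the size rule between flfl_CD4Cre and CD4Cre fell from 265 to 153 with a floor of 200 CPM, 18 after thinning, 169 without shared barcodes and 170 without barcodes above 30000 UMIs. A fit on the libraries of the smaller gene table, which leave 1 library, and the Ccr8 comparison were not run. The 13 to 23 members of a library in the tests limit what can be detected.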

Other observations

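Outside the lists, Hells and Phgdh were among the genes higher in regulatory than in conventional CD4 T cells over the 4 libraries. Hells, a chromatin remodeller of replicating cells, had 186, 101, 193, 86.5 and 71.4 CPM in the members (CD4Cre, flWT_CD4Cre, flfl_CD4Cre, flfl, WT) and 59.0, 27.5, 72.5, 9.52 and 43.9 CPM in conventional cells (log2 fold change 1.68 ± 0.33 SE, edgeR adjusted p = 0.0115). Phgdh, the first enzyme of serine synthesis, had 137, 137, 87.2, 197 and 410.3 CPM and 16.9, 27.5, 60.4, 47.6 and 143 CPM (log2 fold change 1.74 ± 0.39 SE, edgeR adjusted p = 0.028). Both were higher in the members in all 5 libraries. Against CD8 T cells neither passed (Hells 0.50 log2, edgeR adjusted p = 0.819, and Phgdh 0.47 log2, edgeR adjusted p = 0.412).

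Arl5a, a small GTPase of the Golgi, was higher in the members than in both other classes, at 256, 386, 336, 83.0 and 80.3 CPM against 27.5 to 101 CPM in conventional and 39.4 to 78.4 CPM in CD8 cells (log2 fold changes 2.18 ± 0.34 and 2.01 ± 0.35 SE, edgeR adjusted p = 0.00465 and 0.00667). The regulators of the cytoskeleton Arap2 and Evl were lower than in conventional cells, at -2.23 ± 0.36 (SE, edgeR adjusted p = 0.00465) and -1.95 ± 0.46 log2 (SE, edgeR adjusted p = 0.039). The TGF-beta receptor chain Tgfbr2 had 53.0, 59.4, 18.7, 31.1 and 8.92 CPM in the members and 105, 138, 145, 76.2 and 49.4 CPM in conventional cells, lower in the members in each library (log2 fold change -1.54 ± 0.37 SE, edgeR adjusted p = 0.0331).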
